A study of Mus musculus with 6 samples.

Results

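Collagens are the main structural proteins of connective tissue, and each is built from 3 chains wound into a triple helix. The genes described here are the 44 mouse genes whose symbol has the form of a collagen chain (Col, a type number, the letter a and a chain number), out of 20672 genes counted in any of 3 limb tissues. All 44 were among the 16964 genes listed in all 3 count tables, and all 44 passed the filter on low counts that left 15856 genes for testing. The rule reads the symbol and no measured value.

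RNA sequencing was done on 6 mouse libraries, 2 each from the Achilles tendon, the infrapatellar fat pad (adipose tissue of the knee joint) and the rectus femoris (a thigh muscle). The mice were female by the series' title, and neither strain nor age is stated in the labels. The titles of both fat pad libraries name letrozole (spelled Letrozol there), a drug that blocks oestrogen synthesis, and the titles of the tendon and muscle libraries name no drug. Labels that split a tissue into drug and vehicle are lacking, so in any comparison with the fat pad the drug and the tissue cannot be told apart. The treatment label was used for the tissue, because under source and tissue every library is entered as fat pad. Each tissue's titles carry a code of their own, and the tendon and fat pad titles alone end in the word combined, while the batch label is the same for all 6. What these marks stand for cannot be told apart from tissue. The transcript levels of each tissue were deposited under a name that sets its 2 libraries against each other. Whether both libraries of a tissue are replicates or differ in condition is not stated, nor whether they came from different animals. The fit treats them as replicates, so the p-values reflect how far these libraries spread. That spread may be technical or may hold a difference in condition, which was not tested.

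Fibril-forming collagens (types I, II, III, V, XI, XXIV and XXVII) assemble into the fibres that carry load, with type I the main collagen of tendon. Fibril-associated collagens bind to the surface of those fibrils, type IV forms the sheet of basement membranes around muscle fibres, fat cells and vessels, and type VI forms beaded filaments close to cells. In some collagens the chains of 1 trimer are encoded by different genes, so the amounts of such partner chains can be compared within a library.

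The sequences upstream of 3 genes are shown because Col11a1 and Col11a2 were among the chains most above the fat pad in tendon and Col10a1 was the chain below it. They are the 250 bases before the start site, 5′ to 3′ on the gene's strand, from RefSeq on build GRCm38.p6, and overlap no annotated exon. Capitals mark matches to 4 motifs searched on both strands, namely the TATA box as TATAAA, the CCAAT box, the GC box as GGGCGG and the E-box as CANNTG, where N is any base and the motif reads the same on both strands.
Col11a1, chr3:114030290-114030539, plus strand: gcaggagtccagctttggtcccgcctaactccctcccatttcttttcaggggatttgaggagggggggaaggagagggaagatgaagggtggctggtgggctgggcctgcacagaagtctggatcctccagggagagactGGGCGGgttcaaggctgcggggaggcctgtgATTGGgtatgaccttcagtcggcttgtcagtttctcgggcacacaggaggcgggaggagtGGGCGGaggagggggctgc
Col11a2, chr17:34038888-34039137, plus strand: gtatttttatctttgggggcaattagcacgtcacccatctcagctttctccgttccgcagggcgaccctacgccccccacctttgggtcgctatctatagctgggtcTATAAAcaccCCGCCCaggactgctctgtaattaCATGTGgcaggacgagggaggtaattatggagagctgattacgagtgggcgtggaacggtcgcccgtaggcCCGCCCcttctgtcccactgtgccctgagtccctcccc
Col10a1, chr10:34389731-34389980, plus strand: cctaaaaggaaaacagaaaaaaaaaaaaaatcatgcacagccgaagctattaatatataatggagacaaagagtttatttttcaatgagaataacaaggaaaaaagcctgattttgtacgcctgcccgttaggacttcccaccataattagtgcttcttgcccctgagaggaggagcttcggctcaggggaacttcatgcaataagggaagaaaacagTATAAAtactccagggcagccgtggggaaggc
Col11a1 and Col11a2 each held 2 GGGCGG matches in this stretch and Col10a1 held none. Col10a1 held TATAAA at positions -32 to -27 from the start site, Col11a2 held it at -143 to -138, and Col11a1 lacked it. Windows of 300 bases (250 before and 50 after the start) were found for 35 of the 44 chains, which gave 38 windows. GGGCGG occurred in 60.5% of them, against 35.7% of all 32851 windows. CANNTG occurred in 52.6% against 72.3%, CCAAT in 34.2% against 37.4%, and TATAAA in 13.2% against 13.6%. These are descriptions of letters in the windows, not of bound sites.

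Total counts lay between 59042675 and 62063826 in tendon, between 83132413 and 106319037 in the fat pad and between 56216295 and 58544836 in muscle. Levels are given as CPM, counts per 1e6 after scaling by the trimmed mean of M-values (TMM), with library 1 before library 2. A count of 0 allows up to 0.0735 CPM, taking 3 counts as the limit and covering counting error only. The summed markers of each tissue were highest under its own label, though not every marker was. The 6 tenocyte markers summed to 7711 and 11830 CPM in tendon, 145.9 and 150.4 CPM in the fat pad and 1176 and 743 CPM in muscle, while the 6 adipocyte markers summed to 3261 and 716 CPM in tendon, 70740 and 77120 CPM in the fat pad and 431 and 999 CPM in muscle. Cfd made up most of the fat pad's adipocyte sum (51770 and 58580 CPM). The tenocyte marker Egr1 and the adipocyte markers Plin1 and Lep did not pass in tendon over fat pad, and Lep was 65.7 and 6.20 CPM in tendon against 20.5 and 11.01 CPM in the fat pad. The tendon libraries also held muscle fibre RNA, with the 8 muscle fibre markers at 31890 and 60280 CPM in tendon, 167 and 158 CPM in the fat pad and 234300 and 213500 CPM in muscle, and none of the 8 at 0. Of the 8, 2 were higher and 3 lower in tendon than in muscle, beside 13.3% and 12.7% of all genes. The higher ones were the slow fibre genes Myh7, at 4983 and 2547 CPM in tendon against 1.79 and 6.12 CPM in muscle, and Tnnt1, at 838 and 494 CPM in tendon against 4.41 and 5.59 CPM in muscle. The part of muscle fibre RNA in the collagen results was not tested.

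Gene length moved with every comparison that involves the fat pad, and most collagen chains are long. Their coding sequences run from 1320 to 9863 bases, and 30 of the 44 have at least 4000. Among other genes with 4000 to 6000 coding bases, the median log2 fold change was 1.59 for tendon over fat pad, 0.34 for tendon over muscle and -1.16 for fat pad over muscle. Among genes under 500 bases the medians were -1.33, -0.23 and 0.94. The 24 chains in that class of 4000 to 6000 bases had medians of 2.72, 0.71 and -1.98. The fits were therefore repeated with an offset that removes each library's trend over coding length, an alternative added after seeing the data, and the calls it ended or made are named with the chains. The cause of the length pattern was not tested.

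**Figure D1:**
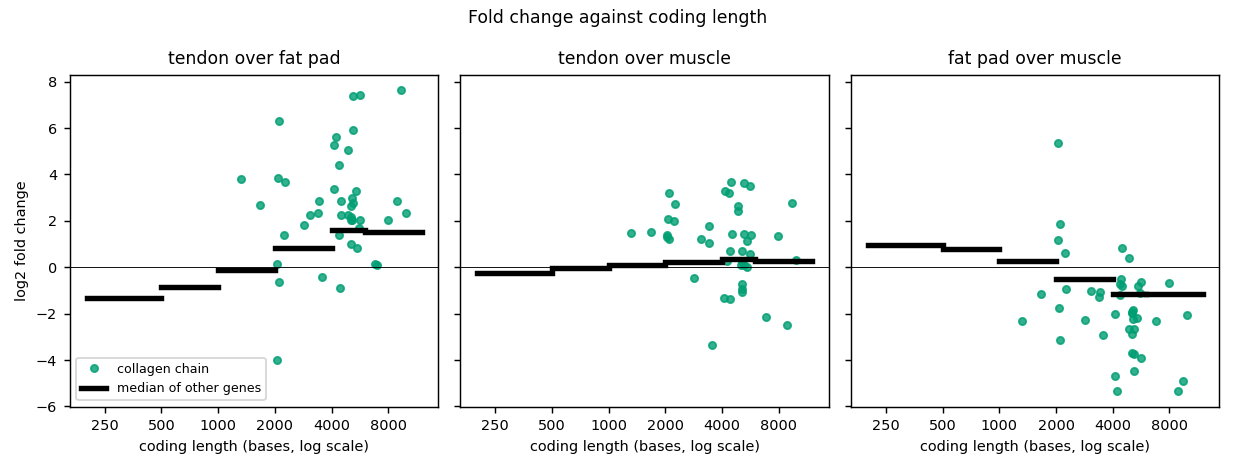
Log2 fold change (y axis) against coding length in bases (x axis, log scale) for the 3 comparisons of tissues. Green points are collagen chains and black bars are the medians of all other genes in 6 length classes, with Col6a4 left out where muscle had 0 counts. In tendon over fat pad the bars climb from -1.33 in the shortest class to 1.59 at 4000 to 6000 bases, and most chains lie above them.

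Collagen transcripts took a larger part of the tendon libraries than of the others. The 44 chains together made up 4.21% and 2.55% of all counts in tendon, 0.312% and 0.218% in the fat pad and 0.501% and 0.451% in muscle. By counts, the lower tendon library held more than 5 times the share of the higher muscle library. By the deposited TPM, a level scaled for length and depth, the nearest tendon and muscle libraries lay closer. Summed over the 42 chains listed there, TPM was 6388 and 10650 in tendon, 1022 and 748 in the fat pad and 3630 and 1653 in muscle. A mean of at least 50 CPM was reached by 21 chains in tendon, 11 in the fat pad and 15 in muscle. The highest mean of a chain was in tendon for 33 chains, in the fat pad for 2 (Col10a1 and Col25a1) and in muscle for 9. In these bulk samples, more cells of a type and more RNA per cell cannot be told apart.

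**Figure D2:**
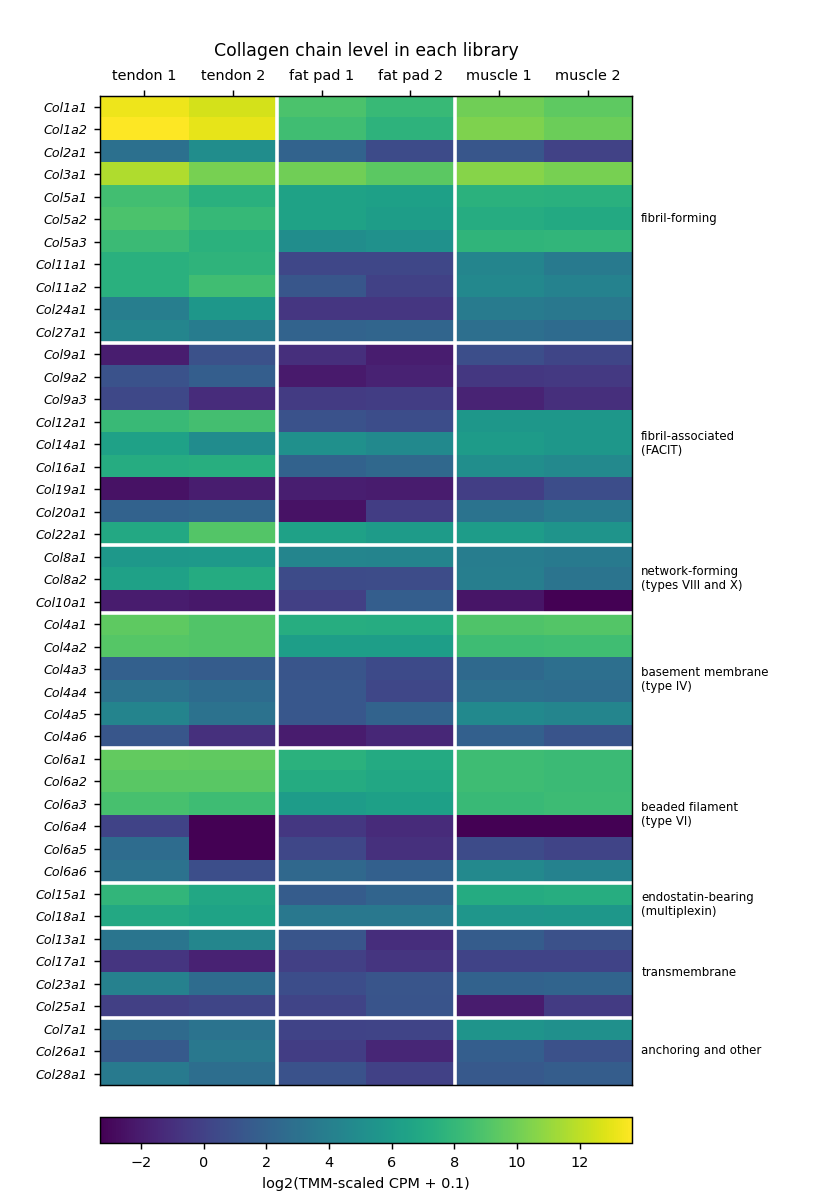
Level of each collagen chain, as log2 of TMM-scaled CPM plus 0.1 (colour), in the 6 libraries (columns), with chains in rows by class. Col1a1 and Col1a2 in tendon are the brightest cells, and Col11a1, Col11a2, Col12a1, Col8a2 and Col24a1, each above 15 CPM in both tendon libraries, are under 3 CPM in both fat pad libraries.

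In tendon over fat pad, 32 of the 44 chains were higher and 1 was lower at an adjusted p of 0.05, where 31.4% of all 15856 genes were higher and 27.2% lower. The chains' median log2 fold change was 2.35, beside 0.01 over all genes. The 2 libraries of tendon both lay above the fat pad libraries for 34 chains and below them for 1, against 41.1% and 40.4% of all genes. In either direction 58.5% of all genes were called. With the length offset, 23 chains were higher and 2 lower, with a median of 1.13.

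In tendon over muscle, 17 chains were higher and 2 were lower, against 13.3% and 12.7% of all genes, and the chains' median was 1.26 beside 0.10 over all genes. Both tendon libraries lay above both muscle libraries for 24 chains and below them for 7, against 36.4% and 33.7% of all genes, and 26% of all genes were called in either direction. The length offset left 15 higher and 4 lower, with a median of 0.95. These calls rest on having both muscle libraries. Without muscle library 1, 2 chains were called (Col11a1 and Col8a2), and without muscle library 2, 1 was (Col11a1), while over all genes 37 were higher and 6 lower in the first fit and 14 higher and 5 lower in the second. Those fits assume that the lone library varies like the others. Scaling by total counts moved the median of all genes to 0.83 and gave 24 chains higher and 1 lower, beside 37.6% of all genes higher and 2.51% lower.

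In fat pad over muscle, 2 chains were higher and 26 were lower, against 29.8% and 29.6% of all genes, and the chains' median was -1.88 beside 0.14 over all genes. Both fat pad libraries lay above both muscle libraries for 5 chains and below them for 35, against 43.7% and 39.7% of all genes, and 59.4% of all genes were called in either direction. After the length offset 2 were higher and 17 lower, with a median of -0.79. Under total-count scaling, which moved the median of all genes to 0.66, the counts were 2 higher and 20 lower, beside 40% of all genes higher and 21.6% lower. The 3 comparisons share libraries, so their calls are not independent. Col6a4 had 0 counts in both muscle libraries. With muscle set at the limit of 3 counts per library, its mean was at least 6.92-fold higher in tendon (where library 2 also had 0 counts). In fat pad it was at least 6.41-fold higher than in muscle. These bounds cover counting error only. Neither comparison passed (adjusted p = 0.134 and adjusted p = 0.092, edgeR), and the tendon and muscle libraries overlapped. The medians did not move with that setting.

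**Figure D3:**
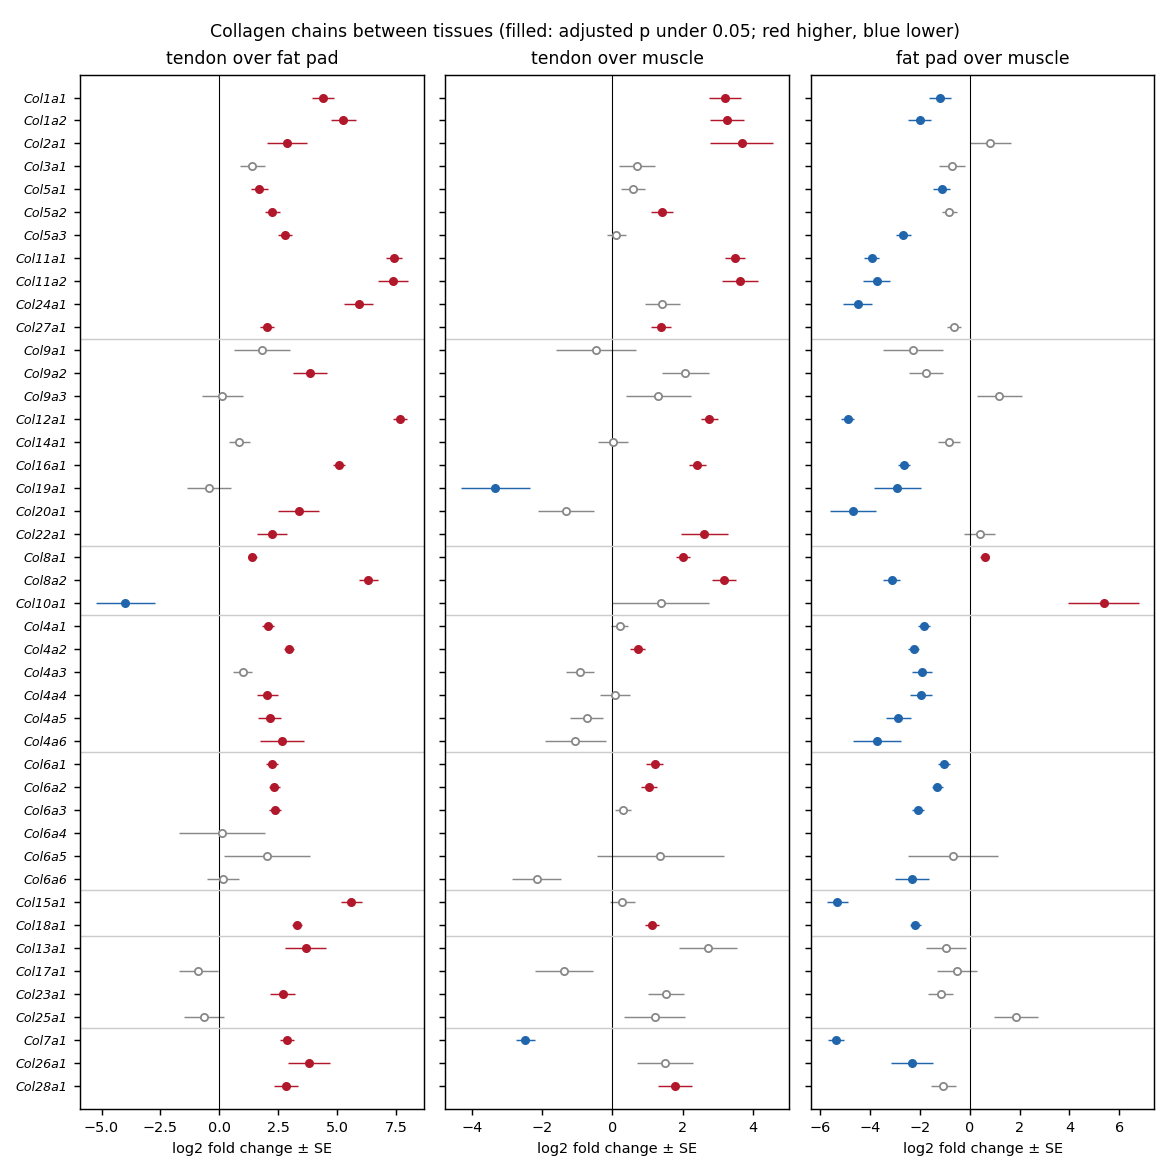
Log2 fold change (x axis) with its standard error for each collagen chain (rows, by class) in the 3 comparisons. Filled points passed an adjusted p of 0.05 (edgeR), red higher and blue lower, and Col6a4 is left out where muscle had 0 counts. Of the 44 chains, 32 are red and 1 is blue in tendon over fat pad, while 2 are red and 26 blue in fat pad over muscle.

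Of the 11 fibril-forming chains, 10 were higher in tendon than in the fat pad (median log2 fold change 2.87), 7 were higher in tendon than in muscle (1.42) and 7 were lower in fat pad than in muscle (-1.20). Under the length offset these counts were 7, 7 and 4, and the median of fat pad over muscle was -0.16. For this and every other class, 31.4% of all genes were higher in tendon than in the fat pad and 13.3% than in muscle. In fat pad over muscle 29.6% of all genes were lower. Col1a1, a chain of type I collagen, stood at 9643 and 6220 CPM in tendon, 469.8 and 281 CPM in the fat pad and 998 and 721 CPM in muscle. Its partner Col1a2 stood at 13140 and 8623 CPM in tendon, 359 and 206 CPM in the fat pad and 1332 and 922 CPM in muscle. By CPM, in both genes each tendon library lay above every other library, and each muscle library above each fat pad library. Col1a1 had a log2 fold change of 4.40 ± 0.48 for tendon over fat pad (adjusted p = 0.000345, edgeR) and 3.21 ± 0.46 for tendon over muscle (adjusted p = 0.0085, edgeR). For Col1a2 the values were 5.27 ± 0.53 (adjusted p = 0.000249, edgeR) and 3.27 ± 0.48 (adjusted p = 0.00908, edgeR). Both were lower in fat pad than in muscle, with -1.20 ± 0.43 for Col1a1 (adjusted p = 0.0465, edgeR) and -1.997 ± 0.46 for Col1a2 (adjusted p = 0.00872, edgeR), and both calls ended with the length offset (-0.16 and -1.01). The Col1a1 call also ended with total-count scaling, in every TPM alternative and without any 1 of the fat pad or muscle libraries. By TPM, Col1a1 in muscle library 2 (252.1) lay below fat pad library 1 (255.3). The Col1a2 call also ended without fat pad library 2 or without muscle library 1.

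Col3a1, the chain of type III collagen, which mixes with type I in pliable tissues and in healing tendon, passed no comparison. Its levels were 3274 and 1179 CPM in tendon, 1017 and 665 CPM in the fat pad and 1560 and 1199 CPM in muscle. Tendon library 1 was the highest and tendon library 2 lay just below muscle library 2. Its log2 fold changes were 1.41 ± 0.52 (adjusted p = 0.0528), 0.69 ± 0.51 (adjusted p = 0.346) and -0.71 ± 0.51 (adjusted p = 0.263, edgeR) for tendon over fat pad, tendon over muscle and fat pad over muscle. Both tendon libraries lay above both fat pad libraries, and 7 of 16 alternatives called the first of these values, total-count scaling, the replicate block and DESeq2 among them.

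Type V chains start type I fibrils and limit their width. Col5a1 stood at 374 and 176 CPM in tendon, 87.7 and 81.0 CPM in the fat pad and 189 and 179 CPM in muscle. Col5a2 stood at 469.7 and 270.2 CPM in tendon, 87.0 and 69.5 CPM in the fat pad and 148 and 128 CPM in muscle. Col5a3 stood at 304 and 189 CPM in tendon, 32.5 and 39.5 CPM in the fat pad and 223 and 233 CPM in muscle. For Col5a1 and Col5a3 the tendon and muscle libraries overlapped and both lay above the fat pad, while for Col5a2 the 3 tissues did not overlap. All 3 were higher in tendon than in the fat pad, by 1.71 ± 0.35 for Col5a1 (adjusted p = 0.00558), 2.24 ± 0.32 for Col5a2 (adjusted p = 0.000983) and 2.78 ± 0.29 for Col5a3 (adjusted p = 0.000278, edgeR). Over muscle, Col5a2 alone of the 3 passed in tendon (1.42 ± 0.31, adjusted p = 0.0209, edgeR), and the differences between the 3 chains were not tested. In fat pad over muscle Col5a3 was lower (-2.66 ± 0.29, adjusted p = 0.000287), as was Col5a1 (-1.12 ± 0.35, adjusted p = 0.0286, edgeR). Col5a1, under the length offset, lost its call in tendon over fat pad (0.13) and in fat pad over muscle (0.07). Its call in fat pad over muscle also ended with total-count scaling and without any 1 of the fat pad or muscle libraries. Under the offset Col5a2 and Col5a3 were 0.80 and 1.24 in tendon over fat pad and Col5a3 was -1.49 in fat pad over muscle, all still called.

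The type XI chains, minor partners of fibrils in cartilage and in forming tendon, had the highest log2 fold changes of the fibril-forming class in tendon over fat pad. Col11a1 stood at 174 and 208 CPM in tendon, 1.12 and 1.12 CPM in the fat pad and 21.3 and 12.9 CPM in muscle. Col11a2 stood at 177 and 348 CPM in tendon, 2.28 and 0.889 CPM in the fat pad and 23.9 and 18.2 CPM in muscle. In both genes the tissues did not overlap, with tendon highest and the fat pad near 1 to 2 CPM. Col11a1 was 7.42 ± 0.34 in tendon over fat pad (adjusted p = 5.56e-05, edgeR), 3.48 ± 0.28 in tendon over muscle (adjusted p = 0.00377, edgeR) and -3.93 ± 0.30 in fat pad over muscle (adjusted p = 7.81e-05, edgeR). Col11a2 was 7.38 ± 0.63 (adjusted p = 0.00014), 3.64 ± 0.52 (adjusted p = 0.00857) and -3.74 ± 0.53 (adjusted p = 0.00101, edgeR). Both kept all 3 calls with the length offset, at 5.89 and 5.93 in tendon over fat pad.

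Col2a1, the type II collagen of cartilage, was far lower than type I in tendon. It stood at 7.79 and 32.6 CPM in tendon, 4.19 and 1.35 CPM in the fat pad and 2.23 and 0.903 CPM in muscle. It was higher in tendon than in the fat pad (2.87 ± 0.85, adjusted p = 0.024) and than in muscle (3.69 ± 0.90, adjusted p = 0.0283, edgeR), and both calls ended without tendon library 2, at 1.50 and 2.32. The call over the fat pad also ended without fat pad library 2 and with the length offset (1.54), and that over muscle ended without either muscle library. The 7 chondrocyte markers summed to 2925 and 2617 CPM in tendon, 163 and 127 CPM in the fat pad and 77.1 and 61.5 CPM in muscle. In tendon 4 of the 7 were higher and 1 lower than in the fat pad (31.4% and 27.2% of all genes). Over muscle 6 were higher in tendon (13.3% of all genes), and none was at 0 in any library. Most of that sum was Chad and Comp, which tendon cells also make, while Acan, the large cartilage proteoglycan, stood at 5.33 and 1.84 CPM in tendon, 1.02 and 0.276 CPM in the fat pad and 0.0980 and 0.198 CPM in muscle. The part of cartilage cells in the type II, IX and XI levels was not tested.

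Of the remaining fibril-forming chains, Col24a1 stood at 15.4 and 50.2 CPM in tendon, 0.553 and 0.534 CPM in the fat pad and 13.5 and 10.97 CPM in muscle and was higher in tendon than in the fat pad (5.91 ± 0.62, adjusted p = 0.000285, edgeR). It was lower in fat pad than in muscle (-4.49 ± 0.59, adjusted p = 0.000667, edgeR), with the libraries of the 3 tissues not overlapping. In tendon over muscle Col24a1 did not pass (1.42 ± 0.50, adjusted p = 0.0781, edgeR). Col27a1, a chain of developing cartilage, stood at 21.5 and 14.1 CPM in tendon, 4.24 and 4.54 CPM in the fat pad and 7.33 and 6.19 CPM in muscle and was higher in tendon than in the fat pad (2.02 ± 0.29, adjusted p = 0.00111) and than in muscle (1.397 ± 0.29, adjusted p = 0.0186, edgeR). Its call over the fat pad ended with the length offset (0.45).

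Among the 9 fibril-associated chains, 5 were higher in tendon than in the fat pad, 3 were higher and 1 lower in tendon than in muscle, and 4 were lower in fat pad than in muscle. The shares of all genes were 31.4%, then 13.3% and 12.7%, then 29.6%. Col12a1, which coats type I fibrils in tendon and ligament, had the highest log2 fold change over the fat pad of all 44 chains. It stood at 297 and 394 CPM in tendon, 1.89 and 1.52 CPM in the fat pad and 51.1 and 50.8 CPM in muscle. The tissues did not overlap, and the fold changes were 7.66 ± 0.30 in tendon over fat pad (adjusted p = 5.56e-05), 2.76 ± 0.24 in tendon over muscle (adjusted p = 0.00391) and -4.90 ± 0.26 in fat pad over muscle (adjusted p = 4.48e-05, edgeR). All 3 calls of Col12a1 held with the length offset, at 6.03, 2.41 and -3.62.

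Col14a1, a fibril-associated chain related to Col12a1, did not follow it. Its levels were 84.0 and 31.3 CPM in tendon, 37.4 and 26.7 CPM in the fat pad and 63.5 and 50.3 CPM in muscle. The libraries of tendon spanned those of muscle, and no comparison passed the test, with 0.85 ± 0.44 in tendon over fat pad (adjusted p = 0.138, edgeR). Of 16 alternatives, 4 called Col14a1 higher in tendon than in the fat pad and 3 called it lower in fat pad than in muscle. Col16a1 stood at 151 and 164 CPM in tendon, 4.005 and 5.32 CPM in the fat pad and 33.5 and 25.1 CPM in muscle. It was higher in tendon than in the fat pad (5.08 ± 0.26, adjusted p = 5.56e-05) and than in muscle (2.42 ± 0.23, adjusted p = 0.00398, edgeR), with no overlap between tissues. Col16a1 in fat pad over muscle was -2.65 ± 0.24 (adjusted p = 0.000134, edgeR), and -1.53 with the length offset, still called.

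Col22a1, a chain known from the junction of muscle and tendon, was the chain whose tendon libraries differed most among those above 100 CPM. It stood at 126 and 569 CPM in tendon, 84.4 and 63.2 CPM in the fat pad and 68.4 and 44.0 CPM in muscle. Tendon library 2, the higher of the tendon pair, also held the higher muscle fibre sum (60280 against 31890 CPM). Of those markers Myh4, Myh1, Ckm, Acta1 and Tnnt3 were higher in library 2, Myh4 most (19280 against 596 CPM). Myh2, Myh7 and Tnnt1 were lower there (3145, 2547 and 494 CPM against 6177, 4983 and 838 CPM). The deposited TPM of Col22a1 in tendon libraries 1 and 2 was 50.1 and 60.3. The part of muscle fibre RNA in the Col22a1 level was not tested. Col22a1 was higher in tendon than in the fat pad (2.23 ± 0.66, adjusted p = 0.023) and than in muscle (2.63 ± 0.67, adjusted p = 0.0318, edgeR). Without tendon library 2 the value over the fat pad was 0.78 and not called, and that over muscle was 1.16 and still called (adjusted p = 0.0311, edgeR). Leaving out either fat pad library ended both calls, leaving out either muscle library ended that over muscle, and with the length offset both ended, at 0.84 and 2.33.

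The other fibril-associated chains stayed under 15 CPM in every library. Col20a1 stood at 3.99 and 4.65 CPM in tendon, 0.0774 and 0.747 CPM in the fat pad and 8.67 and 12.9 CPM in muscle, higher in tendon than in the fat pad (3.37 ± 0.87, adjusted p = 0.0141, a call that ended with the length offset) and lower in fat pad than in muscle (-4.69 ± 0.92, adjusted p = 0.00433, edgeR). Col19a1, a rare chain of basement membrane zones and muscle, had 6 and 11 counts in tendon, 15 and 16 in the fat pad and 33 and 69 in muscle. It was lower in tendon than in muscle (-3.33 ± 0.98, adjusted p = 0.047) and lower in fat pad than in muscle (-2.91 ± 0.95, adjusted p = 0.0341, edgeR). The call in tendon over muscle ended in 9 of 14 alternatives, leaving out any 1 of the 6 libraries included. That in fat pad over muscle ended in 7 of 14, namely total-count scaling, the replicate block, leaving out any 1 of the fat pad or muscle libraries, and the length offset (-2.01). Of the type IX chains, which decorate type II fibrils in cartilage, Col9a2 was higher in tendon than in the fat pad (3.84 ± 0.72, adjusted p = 0.00344, edgeR) at 1.80 and 3.22 CPM in tendon, 0.133 and 0.213 CPM in the fat pad and 0.588 and 0.595 CPM in muscle. Col9a1 and Col9a3 stayed under 2 CPM in every library and passed no test.

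The 3 network-forming chains moved in different directions. Col8a1 and Col8a2 encode type VIII collagen, a short-chain collagen of vessel walls and of Descemet's membrane in the eye. Col8a1 stood at 54.2 and 55.2 CPM in tendon, 21.1 and 20.3 CPM in the fat pad and 15.0 and 12.2 CPM in muscle. Col8a2 stood at 85.5 and 139.7 CPM in tendon, 1.37 and 1.44 CPM in the fat pad and 15.7 and 9.12 CPM in muscle. In Col8a1 tendon was highest and muscle lowest, while in Col8a2 tendon was highest and the fat pad lowest, with no overlap in either. Both were higher in tendon than in the fat pad, Col8a1 by 1.41 ± 0.18 (adjusted p = 0.000708) and Col8a2 by 6.32 ± 0.41 (adjusted p = 7.47e-05, edgeR). Over muscle the tendon values were 2.01 ± 0.19 for Col8a1 (adjusted p = 0.00391) and 3.19 ± 0.35 for Col8a2 (adjusted p = 0.00526, edgeR). In fat pad over muscle Col8a1 was higher (0.61 ± 0.18, adjusted p = 0.0253) and Col8a2 lower (-3.14 ± 0.36, adjusted p = 0.000358, edgeR). The Col8a1 call in fat pad over muscle ended without any 1 of the fat pad or muscle libraries, at 0.46 to 0.76. It ended also in every TPM alternative, at 0.044 in the lowest. By TPM the fat pad libraries (10.31 and 10.25) lay between the muscle libraries (14.05 and 6.95). The Col8a1 value in tendon over fat pad was 0.88 with the length offset, still called.

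Col10a1, the collagen of hypertrophic cartilage, was the chain lower in tendon than in the fat pad. It had 11 and 8 counts in tendon, 76 and 363 in the fat pad and 4 and 0 in muscle, and stood at 0.142 and 0.110 CPM in tendon, 0.841 and 3.23 CPM in the fat pad and 0.0980 and 0 CPM in muscle. Both fat pad libraries lay above the other 4. Its log2 fold changes were -4.00 ± 1.25 in tendon over fat pad (adjusted p = 0.0293) and 5.37 ± 1.41 in fat pad over muscle (adjusted p = 0.015, edgeR). Fat pad library 2 holds most of these counts, and without it both calls ended, at -2.71 and 4.08. The tendon comparison also lost its call without either tendon library, and that with muscle without muscle library 2. The 6 osteoblast markers summed to 30.6 and 25.04 CPM in tendon, 273 and 179 CPM in the fat pad and 15.7 and 21.9 CPM in muscle, with 2 of 6 lower in tendon than in the fat pad and 4 of 6 higher in fat pad than in muscle. The shares of all genes were 27.2% and 29.8%, so the first count lay near its share. Bglap2, a gene of the bone protein osteocalcin, was at 0 in tendon library 2 and both muscle libraries and reached 99.98 and 108.4 CPM in the fat pad, and Sp7 was at 0 in both muscle libraries, as were Bglap and Ibsp in muscle library 2. The part of bone or growth cartilage cells in the Col10a1 level was not tested.

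Type IV chains of basement membranes were all lower in fat pad than in muscle (6 of 6, median -2.10), and 5 of 6 were higher in tendon than in the fat pad (median 2.10). Between tendon and muscle 1 of 6 passed, beside 26% of all genes. Col4a1 stood at 714 and 547 CPM in tendon, 153 and 149.6 CPM in the fat pad and 522 and 565 CPM in muscle. Col4a2, encoded head to head with Col4a1 and its partner in the common type IV trimer, stood at 596 and 541 CPM in tendon, 72.3 and 73.2 CPM in the fat pad and 331 and 358 CPM in muscle. Tendon and muscle overlapped for Col4a1, and both lay above the fat pad for both genes. In tendon over fat pad Col4a1 was 2.06 ± 0.25 (adjusted p = 0.000503) and Col4a2 was 2.96 ± 0.23 (adjusted p = 0.000103, edgeR). In fat pad over muscle they were -1.84 ± 0.25 (adjusted p = 0.000747) and -2.24 ± 0.22 (adjusted p = 0.000186, edgeR). Col4a2 was also higher in tendon than in muscle (0.72 ± 0.21, adjusted p = 0.0458, edgeR), a call that ended in 12 of 16 alternatives, the length offset among them (0.38).

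The rarer type IV chains, best known from kidney, lung, eye and smooth muscle, stayed under 30 CPM. Col4a5 was the highest of them at 20.7 and 8.37 CPM in tendon, 2.33 and 4.22 CPM in the fat pad and 26.8 and 21.5 CPM in muscle. Its log2 fold changes were 2.15 ± 0.49 in tendon over fat pad (adjusted p = 0.00808) and -2.88 ± 0.50 in fat pad over muscle (adjusted p = 0.00245, edgeR). In tendon over fat pad Col4a5 was 1.30 without tendon library 1 and 2.67 without tendon library 2, and its call ended without fat pad library 1. Col4a3 and Col4a4 lay between 1.16 and 8.53 CPM and Col4a6 between 0.144 and 3.53 CPM. Col4a6 was 2.66 ± 0.93 in tendon over fat pad (adjusted p = 0.0439, edgeR). That call ended in 8 of 16 alternatives, the replicate block and leaving out any 1 library but tendon library 2 among them. Under the offset 1 type IV chain was still higher in tendon than in the fat pad (Col4a2, 1.46), and 4 of 6 were lower in fat pad than in muscle (Col4a1 -0.68, Col4a2 -1.08, Col4a5 -1.72 and Col4a6 -2.58). The offset also made a call of Col4a3 lower in tendon than in muscle (-1.26).

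Type VI collagen split by chain. The 3 chains of its classic trimer were abundant in all tissues, and all 3 were higher in tendon than in the fat pad and lower in fat pad than in muscle. Col6a1 stood at 767 and 725 CPM in tendon, 183 and 134 CPM in the fat pad and 334 and 313 CPM in muscle. Col6a2 stood at 649 and 656 CPM in tendon, 139 and 119.5 CPM in the fat pad and 333 and 302 CPM in muscle. Col6a3, the long chain, stood at 426 and 335 CPM in tendon, 68.4 and 80.2 CPM in the fat pad and 289.6 and 330.0 CPM in muscle. The 3 tissues did not overlap in any of these genes, with tendon highest and the fat pad lowest. In tendon over fat pad the values were 2.24 ± 0.26 for Col6a1 (adjusted p = 0.000407), 2.34 ± 0.23 for Col6a2 (adjusted p = 0.000221) and 2.36 ± 0.24 for Col6a3 (adjusted p = 0.000263, edgeR). Over muscle, tendon was higher in Col6a1 (1.21 ± 0.25, adjusted p = 0.0186) and Col6a2 (1.04 ± 0.22, adjusted p = 0.0198), and Col6a3 did not pass (0.29 ± 0.23, adjusted p = 0.369, edgeR). In fat pad over muscle the values were -1.03 ± 0.25, -1.30 ± 0.22 and -2.06 ± 0.24 for Col6a1, Col6a2 and Col6a3 (adjusted p = 0.0104, adjusted p = 0.00228 and adjusted p = 0.000393, edgeR). With the length offset the Col6a1 and Col6a2 calls in fat pad over muscle ended (-0.32 and -0.47), and that of Col6a3 was -0.76. The values in tendon over fat pad were then 1.22 for Col6a1, 1.19 for Col6a2 and 0.67 for Col6a3, all still called. The Col6a1 call in fat pad over muscle also ended with total-count scaling, without fat pad library 2 and without either muscle library.

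The alternative type VI chains, which can take the place of Col6a3, were scarce. Col6a6 was highest in muscle, at 8.23 and 1.61 CPM in tendon, 5.28 and 3.59 CPM in the fat pad and 25.6 and 18.4 CPM in muscle, and was lower in fat pad than in muscle (-2.31 ± 0.69, adjusted p = 0.0252, edgeR), a call that ended with the length offset. In tendon over muscle it did not pass (adjusted p = 0.0598, edgeR), though both tendon libraries lay below both muscle libraries, and with the length offset it was called (-2.62). The call in fat pad over muscle ended also with total-count scaling and without any 1 of the fat pad or muscle libraries. Col6a5 had 483 and 0 counts in tendon, 100 and 47 in the fat pad and 57 and 46 in muscle. Col6a4 had 75 and 0 counts in tendon, 52 and 36 in the fat pad and 0 in both muscle libraries.

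The 2 multiplexin chains, whose ends hold endostatin-like domains, were both higher in tendon and in muscle than in the fat pad. Col15a1, which links basement membranes to the matrix of muscle fibres and capillaries, stood at 239 and 119.5 CPM in tendon, 2.93 and 4.41 CPM in the fat pad and 139 and 154 CPM in muscle. Col18a1 stood at 125.4 and 91.0 CPM in tendon, 10.96 and 11.04 CPM in the fat pad and 49.6 and 50.1 CPM in muscle. For Col15a1 tendon and muscle overlapped, and the fat pad lay far below both. Col15a1 was 5.61 ± 0.43 in tendon over fat pad (adjusted p = 0.00011) and -5.32 ± 0.43 in fat pad over muscle (adjusted p = 9.35e-05, edgeR). Col18a1 was 3.30 ± 0.21 (adjusted p = 7.55e-05) and -2.18 ± 0.20 (adjusted p = 0.000162, edgeR), and was also higher in tendon than in muscle (1.12 ± 0.20, adjusted p = 0.013, edgeR). The calls against the fat pad held with the length offset, at 4.18 and -4.26 for Col15a1 and 1.76 and -0.997 for Col18a1.

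Of the 4 transmembrane chains, 2 were higher in tendon than in the fat pad, beside 31.4% of all genes, and none passed in the other comparisons. Col13a1, a chain of muscle-nerve and muscle-tendon contacts, stood at 9.68 and 21.9 CPM in tendon, 2.13 and 0.373 CPM in the fat pad and 3.01 and 1.78 CPM in muscle and was 3.66 ± 0.86 in tendon over fat pad (adjusted p = 0.00917, edgeR). Col23a1 stood at 17.7 and 6.32 CPM in tendon, 1.55 and 2.16 CPM in the fat pad and 4.04 and 4.27 CPM in muscle and was 2.69 ± 0.53 (adjusted p = 0.00428, edgeR). Col17a1, a chain of skin hemidesmosomes, lay between 0.206 and 0.969 CPM in every library, and with the length offset it was called lower in tendon than in the fat pad (-2.33). Col25a1, a chain known from muscle innervation, lay between 0.147 and 2.00 CPM.

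Col7a1, the anchoring fibril chain of skin, was highest in muscle. It stood at 5.67 and 8.96 CPM in tendon, 0.985 and 1.00 CPM in the fat pad and 44.1 and 37.5 CPM in muscle. The tissues did not overlap, with muscle highest and the fat pad lowest. Col7a1 was higher in tendon than in the fat pad (2.88 ± 0.29, adjusted p = 0.00024), lower in tendon than in muscle (-2.48 ± 0.28, adjusted p = 0.00532) and lower in fat pad than in muscle (-5.36 ± 0.32, adjusted p = 4.94e-05, edgeR), and the 3 calls held with the length offset (1.26, -2.83 and -4.09). Epidermal markers were scarce: of the 4, 2 were listed in all 3 tissues, and they summed to 2.07 and 2.08 CPM in tendon, 6.07 and 14.2 CPM in the fat pad and 3.53 and 2.58 CPM in muscle. Krt14 was at 0 in all libraries but tendon library 1, and the part of skin cells in the Col7a1 level was not tested. Col26a1 and Col28a1 were also higher in tendon than in the fat pad, by 3.81 ± 0.88 (adjusted p = 0.00861) and 2.84 ± 0.51 (adjusted p = 0.00284, edgeR), and lay between 0.258 and 12.7 CPM. The Col26a1 value ranged from 2.47 to 4.69 as each library was left out, and its call ended without fat pad library 2. Col26a1 was also lower in fat pad than in muscle (-2.31 ± 0.83, adjusted p = 0.0477, edgeR), a call that ended in 8 of 16 alternatives, any 1 fat pad or muscle library left out among them. Col28a1 was higher in tendon than in muscle (1.79 ± 0.49, adjusted p = 0.0391, edgeR), a call that ended with the replicate block, without either muscle library and without tendon library 1. Under the length offset Col28a1 was 1.68 in tendon over fat pad, still called.

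The make-up of the collagen transcripts differed between tissues when counts were divided by exon length. Fibril-forming chains made up 82.6% and 75.3% of collagen counts per kb in tendon, 65.8% and 59.3% in the fat pad and 59.5% and 53.2% in muscle. Type IV chains made up 5.17% and 6.18% in tendon, 9.23% and 12.6% in the fat pad and 15.1% and 18.8% in muscle. Type VI chains took 7.89% and 10.7% in tendon, 18.6% and 20.5% in the fat pad and 17.2% and 19.2% in muscle. Tendon was highest for the first class and lowest for the other classes just named, without overlap. By single chains, Col1a1 was the most abundant per kb in both tendon libraries (39.9% and 37.2%), whereas Col3a1 led in both fat pad libraries (29.7% and 26.7%) and both muscle libraries (19.1% and 17.1%). Per kb of coding sequence the leading chain in tendon was Col1a2 (42.7% and 41.2%) and Col3a1 still led in the other tissues, and by TPM Col1a1 led in muscle library 1. The shares are given as a description, and their differences were not tested. By deposited TPM the fibril-forming share was 73.5% and 80.1% in tendon, 70.1% and 64.7% in the fat pad and 58.5% and 54.3% in muscle, and the type IV shares of tendon (8.90% and 5.17%) and fat pad (6.96% and 9.76%) overlapped.

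**Figure D4:**
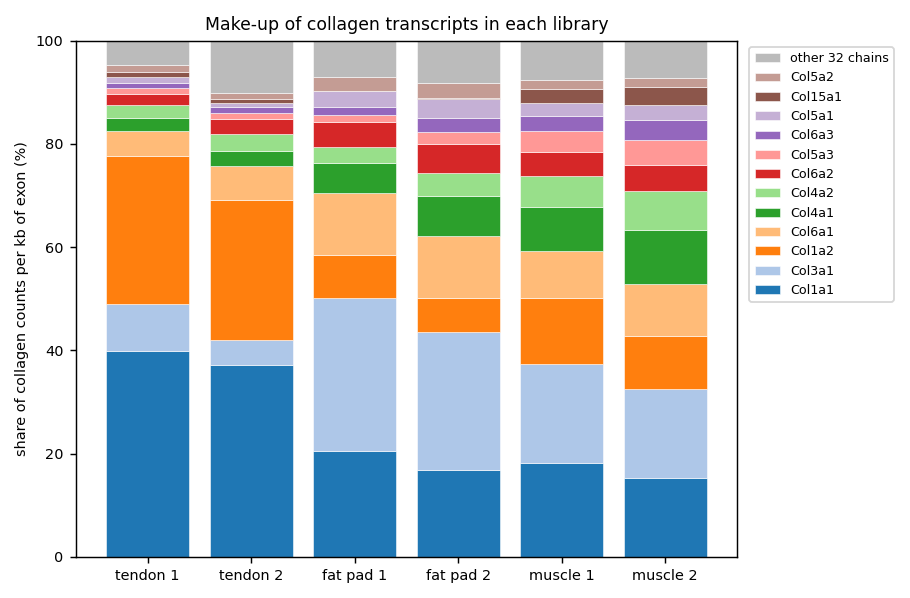
Share of each chain in the summed collagen counts per kb of exon (y axis, %) in the 6 libraries (x axis), for the 12 chains with the highest share in any library and the other 32 together. Col1a1 (dark blue) and Col1a2 (dark orange) fill most of the tendon bars, and Col3a1 (light blue) is the widest band in the fat pad and muscle bars.

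Ratios between chains within a library do not depend on the scaling between libraries. The ratio of Col3a1 to Col1a1, per kb of exon, was 0.227 and 0.127 in tendon, 1.45 and 1.59 in the fat pad and 1.05 and 1.11 in muscle. Both tendon libraries lay below the other 4, and the highest and lowest library differed 12.5-fold. Col1a2 to Col1a1, partners in the type I trimer, was 0.720 and 0.732 in tendon, 0.403 and 0.388 in the fat pad and 0.705 and 0.675 in muscle. The order of these 2 chains depends on the length used, since per kb of coding sequence the same ratios were 1.44 and 1.47 in tendon, 0.809 and 0.778 in the fat pad and 1.41 and 1.35 in muscle.

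The type VI pair was the most even of the ratios computed. Col6a2 to Col6a1 was 0.446 and 0.476 in tendon, 0.3995 and 0.469 in the fat pad and 0.525 and 0.507 in muscle, a span of 1.31-fold. Col4a2 to Col4a1 was 0.942 and 1.11 in tendon, 0.533 and 0.552 in the fat pad and 0.716 and 0.715 in muscle, with no overlap. Col8a2 to Col8a1 spanned 38.9-fold, at 2.75 and 4.42 in tendon, 0.114 and 0.124 in the fat pad and 1.82 and 1.31 in muscle. Col5a3 to Col5a1 was 1.014 and 1.34 in tendon, 0.461 and 0.608 in the fat pad and 1.47 and 1.63 in muscle. Col11a2 to Col11a1 overlapped between tissues, at 1.88 and 3.10 in tendon, 3.78 and 1.47 in the fat pad and 2.08 and 2.62 in muscle.

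**Figure D5:**
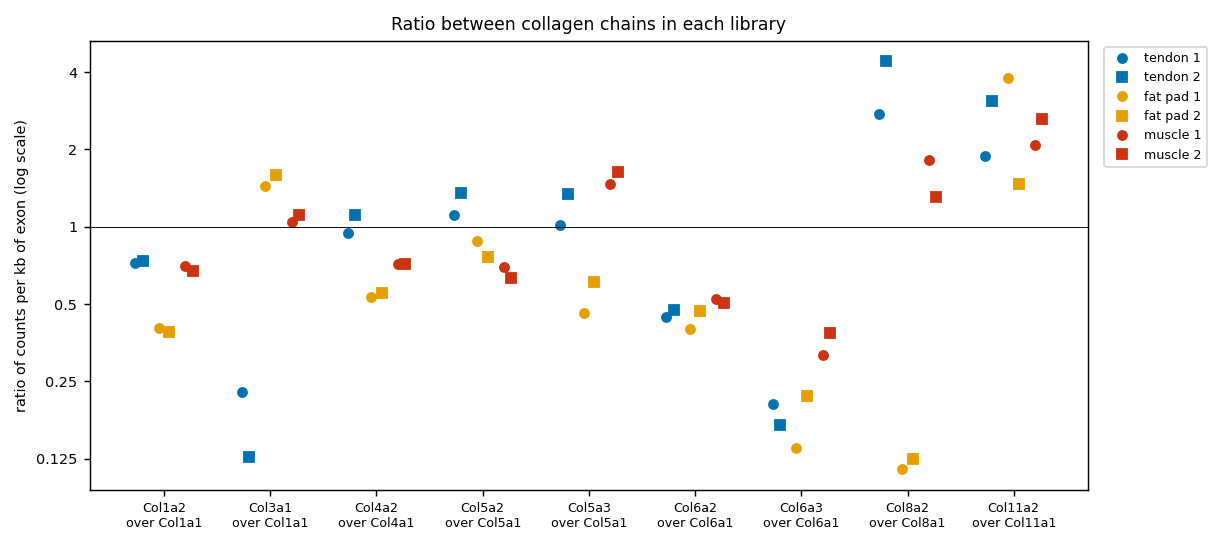
Ratio of counts per kb of exon between 2 collagen chains (y axis, log scale) for 9 pairs (x axis), with 1 point per library, blue for tendon, orange for fat pad and red for muscle. Col3a1 over Col1a1 is lowest in tendon (0.227 and 0.127), Col8a2 over Col8a1 is lowest in the fat pad (0.114 and 0.124), and Col6a2 over Col6a1 is nearly level.

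The libraries of a tissue were not equally alike. Of the 38 chains with at least 100 counts in either tendon library, 9 were at least 2-fold lower and 6 at least 2-fold higher in tendon library 2, where 7.25% and 3.99% of all genes with such counts were. In the fat pad 6 of 34 chains were at least 2-fold lower and 1 was at least 2-fold higher in library 2, beside 6.32% and 4.01% of all genes. In muscle 0 of 34 were either, where the shares of all genes were 1.29% and 1.51%. Tendon library 2 held 85801 counts of Col3a1 and library 1 held 254181, a log2 ratio of -1.47 after scaling (95% binomial interval -1.49 to -1.46). For Col22a1 the counts were 41371 and 9741, a log2 ratio of 2.18 (2.15 to 2.21), and for Col2a1 they were 2374 and 605, a log2 ratio of 2.06 (1.94 to 2.20). These intervals cover counting error only, and each pair is 1 library a side with no test of a condition. The deposited TPM of tendon libraries 1 and 2 did not bear out these ratios for every chain, with Col3a1 listed at 704.5 and 894.6 TPM, Col22a1 at 50.1 and 60.3 TPM and Col2a1 at 1.76 and 28.3 TPM. Across all genes with at least 100 counts in the pair together, the log ratios of library 2 over library 1 from counts and from TPM had a Pearson correlation of -0.203 over 13478 genes for the tendon pair, 0.98 over 13767 genes for the fat pad pair and -0.163 over 12416 genes for the muscle pair, a description over genes, which are not independent. It could not be settled whether a library number stands for the same library in the count and TPM tables of tendon and muscle, which bears on every value given here for a single library of these tissues. TPM went the same way as the counts for 32 of 33 such chains in the fat pad, 24 of 34 in muscle and 18 of 38 in tendon. Col6a5, with 483 and 0 counts in tendon libraries 1 and 2, was listed at 0.773 and 3.31 TPM there. In neither order of the tendon libraries did the counts and TPM of Col6a5 or of Col22a1 match. The 4 Schwann cell markers also separated the tendon libraries, at 681 CPM in library 1 and 43.2 CPM in library 2, as did the adipocyte markers at 3261 and 716 CPM, and their part in these ratios was not tested.

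Genes that act on collagen chains were read beside them. Values with the length offset are not given for these genes. The part of the length pattern in their comparisons with the fat pad was not tested. All 5 lysyl oxidases, which cross-link collagen fibres, were higher in tendon than in the fat pad (median log2 fold change 4.21) and than in muscle (2.37), and 3 of 5 were lower in fat pad than in muscle. The shares of all genes were 31.4%, 13.3% and 29.6%. Lox stood at 472 and 386 CPM in tendon, 21.8 and 24.5 CPM in the fat pad and 61.7 and 41.1 CPM in muscle, a log2 fold change of 4.21 ± 0.29 over the fat pad (adjusted p = 8.41e-05) and 3.06 ± 0.28 over muscle (adjusted p = 0.00391, edgeR). Loxl2 stood at 182 and 177 CPM in tendon, 6.27 and 7.67 CPM in the fat pad and 63.5 and 60.0 CPM in muscle, with 4.68 ± 0.21 (adjusted p = 5.56e-05) and 1.54 ± 0.18 (adjusted p = 0.00597, edgeR). In both genes the 3 tissues did not overlap.

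The 27 genes of procollagen processing and secretion did not move as a block. In tendon over fat pad 11 were higher and 2 lower (median 0.25), beside 31.4% and 27.2% of all genes. In tendon over muscle 14 were higher and 0 lower (1.13), beside 13.3% and 12.7%. In fat pad over muscle 11 were higher and 6 lower (0.20), near the 29.8% and 29.6% of all genes. Serpinh1, the collagen chaperone HSP47, stood at 315 and 491 CPM in tendon, 52.7 and 74.9 CPM in the fat pad and 279 and 200.4 CPM in muscle. It was higher in tendon than in the fat pad (2.66 ± 0.34, adjusted p = 0.00063) and lower in fat pad than in muscle (-1.91 ± 0.33, adjusted p = 0.00237, edgeR). P3h2, a prolyl 3-hydroxylase, stood at 67.2 and 78.1 CPM in tendon, 10.1 and 8.57 CPM in the fat pad and 5.54 and 5.46 CPM in muscle, higher in tendon by 2.96 ± 0.20 over the fat pad (adjusted p = 7.73e-05) and 3.72 ± 0.20 over muscle (adjusted p = 0.00282, edgeR). Crtap and Ppib, partners in another prolyl 3-hydroxylase complex, were above muscle in the fat pad, by 2.36 ± 0.23 (adjusted p = 0.000199) and 1.33 ± 0.18 (adjusted p = 0.000808, edgeR).

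Of the 10 collagen receptors, 7 were higher and 2 lower in tendon than in the fat pad, 5 were higher in tendon than in muscle, and 3 were higher and 4 lower in fat pad than in muscle. The shares of all genes were 31.4% and 27.2%, 13.3%, and 29.8% and 29.6%, so the last counts lay near them. Itga10, an integrin chain that binds collagen, stood at 50.4 and 37.9 CPM in tendon, 1.03 and 1.24 CPM in the fat pad and 7.30 and 4.71 CPM in muscle, with 5.28 ± 0.34 in tendon over fat pad (adjusted p = 7.34e-05) and 2.88 ± 0.30 in tendon over muscle (adjusted p = 0.0047, edgeR). Lair1, an inhibitory receptor of immune cells that binds collagen, went the other way at 1.65 and 1.48 CPM in tendon, 50.2 and 54.0 CPM in the fat pad and 1.50 and 0.991 CPM in muscle, with -5.05 ± 0.28 in tendon over fat pad (adjusted p = 5.56e-05, edgeR). The 4 macrophage markers summed to 297 and 282 CPM in tendon, 4843 and 7309 CPM in the fat pad and 277 and 236 CPM in muscle, and all 4 were lower in tendon than in the fat pad and higher in fat pad than in muscle. None of them was at 0, and their part in the Lair1 level was not tested.

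Among 9 proteoglycans that bind fibrils, 5 were higher and 1 lower in tendon than in the fat pad, 6 were higher in tendon than in muscle, and 4 were higher and 2 lower in fat pad than in muscle. Beside the same shares of all genes, the counts in fat pad over muscle were again near the background. Fmod, fibromodulin, stood at 4246 and 7326 CPM in tendon, 40.9 and 14.9 CPM in the fat pad and 561 and 387 CPM in muscle, with 7.70 ± 0.73 in tendon over fat pad (adjusted p = 0.000199) and 3.61 ± 0.60 in tendon over muscle (adjusted p = 0.0116, edgeR). Lum, lumican, which shares a binding region on fibrils with fibromodulin, was lower in tendon than in the fat pad, at 126 and 69.1 CPM in tendon, 455 and 449 CPM in the fat pad and 121 and 119 CPM in muscle (-2.22 ± 0.31, adjusted p = 0.000993, edgeR). Dcn, decorin, stood at 4249 and 3751 CPM in tendon, 5223 and 6231 CPM in the fat pad and 903 and 803 CPM in muscle and did not pass in tendon over fat pad (-0.52 ± 0.33, adjusted p = 0.213), while it was higher in fat pad than in muscle (2.75 ± 0.35, adjusted p = 0.000599, edgeR).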

How the data were processed

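RNA-seq libraries of 3 mouse tissues (2 each) were analysed. The authors deposited, for each tissue, a table of read counts per gene and a table of TPM (a transcript level scaled for length and depth). Bowtie2, RSEM 1.3.1, DESeq2 1.4.5 and the build GRCm39 are listed, with no role, per the submitters' processing notes. Counting settings and strand were not given in the sources used here. Without strand, reads of overlapping antisense genes cannot be told apart.

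The deposited counts of the 16964 genes listed in all 3 tables were tested with edgeR 4.0.16 (R 4.3.3): TMM scaling, filterByExpr, 1 quasi-likelihood fit over all 6 libraries with tissue as the only term, and Benjamini-Hochberg adjustment over 15856 genes, with calls at 0.05. Every adjusted p is from that fit unless another is named. The biological coefficient of variation was 0.336. A ± after a log2 fold change is its standard error. The fit was also run on simulated counts with planted fold changes and 1 spread for all genes. The real pairs of libraries spread unequally, so that run does not vouch for the calls. Exon and coding lengths are unions over GENCODE M21 models (GRCm38). TPM served only as an alternative, with limma 3.58.1 on log2(TPM + 1), since TPM and counts disagreed in direction for many chains between the libraries of a tissue. Alternatives covered scaling, DESeq2 1.42.0, the filter, the libraries fitted, a replicate block and a coding-length offset. Total counts ran from 56216295 to 106319037 a library. The main fit did not pair samples by library number. Values in every library are given for chains that averaged 50 CPM or more in a tissue and for those with the most extreme called fold changes. The members and gene lists were chosen with earlier results of these data known.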

Additional observations from a re-analysis of the deposited data

How the results depend on the processing

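With 2 libraries a tissue, 1 library can decide a call. Leaving out each library in turn gave 28 to 34 chains called in tendon over fat pad, 1 to 23 in tendon over muscle and 19 to 33 in fat pad over muscle. The low end of tendon over muscle came from leaving out a muscle library (2 called without library 1 and 1 without library 2). Across those fits some values that were not called in the main fit changed sign. For Col14a1 in tendon over fat pad the range was -0.082 to 1.399. In tendon over muscle the ranges were -0.88 to 0.57 for Col14a1, -0.29 to 0.42 for Col5a3 and -0.24 to 1.25 for Col3a1. They were -0.074 to 1.03 for Col5a1, -0.31 to 0.71 for Col15a1 and -0.004 to 0.40 for Col4a1. Each low end came from leaving out tendon library 1 and each high end from leaving out tendon library 2.

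With the coding-length offset, chosen after seeing the data, the sign turned in tendon over fat pad for Col14a1 (-0.72) and Col3a1 (-0.042). It turned in tendon over muscle for Col5a3 (-0.25), Col14a1 (-0.39), Col15a1 (-0.083), Col4a1 (-0.13) and Col6a3 (-0.089), and in fat pad over muscle for Col14a1 (0.33), Col5a2 (0.25), Col3a1 (0.33) and Col5a1 (0.066). Col14a1 in tendon over muscle was -0.063 with RLE size factors and with DESeq2. The cause was not tested.

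The replicate block gave 32, 16 and 27 chains called in the 3 comparisons, and Col14a1 at -0.11 in tendon over muscle. The correlations of the deviations of same-numbered libraries were -0.03 for muscle with fat pad, -0.17 for muscle with tendon and 0.00 for fat pad with tendon. With 2 libraries a tissue, these values cannot show whether same-numbered libraries share an animal. DESeq2 called 34, 24 and 31. With log2(TPM + 1), 36 chains were tested, and 35 were higher and 0 lower in tendon over fat pad (58.2% and 11.4% of all genes). In tendon over muscle 19 were higher and 3 lower (32.2% and 3.74%). In fat pad over muscle 0 were higher and 25 lower (22% and 42.6%).

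The fibril-forming share in the fat pad averaged 67.4% per kb of coding sequence (also added after seeing the data), 68.7% with no length scaling and 67.4% by TPM, and in muscle 63.2% per kb of coding sequence and 62.2% with no length scaling. The planned coding length from a protein table was not run.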

Other observations

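The counts and the deposited TPM did not rank the tendon libraries alike. Summed over the collagen chains, TPM was 6388 and 10650 in tendon libraries 1 and 2, while scaled counts summed to 32020 and 21760 CPM. In the fat pad the sums were 1022 and 748 TPM beside 2870 and 2064 CPM, and in muscle 3630 and 1653 TPM beside 6903 and 5819 CPM. Col1a1 was listed at 2119 and 4457 TPM in tendon libraries 1 and 2, beside 9643 and 6220 CPM.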
